A study of Homo sapiens with 54 samples.

Results

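The genes described here are 39 zinc finger genes that lie close together on the short arm of human chromosome 19, at 19p13.3 to 19p13.2. They were taken as a fixed list of symbols, all 39 were found among the 59368 genes of the deposited tables, and the rule that names them uses position and gene type, not a measured value. RNA was sequenced from 3 lines of human colorectal tumour cells, HT-29, DLD-1 and HCT-116, each in its 5-fluorouracil (5-FU) sensitive parental form and in a form made resistant by long growth in rising 5-FU and then kept in medium with 5-FU. That medium held 5-FU at a higher concentration than the 10 µM dose tested. Cells of both forms received 10 µM uracil for 24 h as the control, 10 µM 5-FU for 24 h, or 5-FU with irradiation at the dose lethal to 50% of that line's cells. This gave 18 conditions of 3 replicates, 54 libraries in all. The sources used here do not say whether each resistant form came from several independent selections or was cloned, so the replicates of a resistant form measure the spread within that culture.

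KRAB zinc finger proteins are the largest family of transcription factors in the human genome. Their fingers bind DNA, often inside transposable elements, and the KRAB domain recruits the co-repressor TRIM28 (KAP1), which brings the histone methyltransferase SETDB1, HP1 proteins and histone deacetylases to the bound site. The genes arose by repeated tandem duplication, and for this reason they stand in clusters, most of them on chromosome 19, and resemble their neighbours in sequence. 5-FU is an analogue of uracil that blocks thymidylate synthase and is built into RNA, in place of uracil, and into DNA.

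By position (GRCh38, GENCODE 44 annotation) the members formed 3 groups, split wherever neighbouring genes started more than 1000000 bases apart. Group 1 held 5 genes from ZNF554 to ZNF77, at chr19:2819868-2944971. Group 2 held 11 genes from ZNF317 to ZNF846, at chr19:9140397-9793180. Group 3 held 23 genes from ZNF627 to ZNF791, at chr19:11559374-12640098. A profile search of the translated transcripts found a KRAB domain in 37 of the 39 members, all but ZNF121 and ZNF491. The number of zinc fingers ran from 6 to 19 with a median of 13.

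Because of their common origin the members share stretches of sequence, and reads from such stretches are divided between genes by estimation. The median member had 83.1% of its 31-base words to itself among all annotated transcripts. ZNF177 was lowest at 11.8%, with 0.0329% shared with other members and the rest with genes outside the list, among which the annotation holds the read-through gene ZNF559-ZNF177. ZNF709 had 21.2% unique, ZNF20 had 40.7% and ZNF763 had 47.3%. ZNF443 and ZNF799 shared 44.2% and 22.8% of their words with each other, and ZNF440 shared 10.6% with ZNF439. Counts of these genes are therefore less certain than those of the 11 members with at least 90% of words unique. The study designed PCR primers for 3 members that also carry much of what follows, and they show the resemblance base by base. They are printed 5′ to 3′, with capitals for 19 bases that both reverse primers hold.
ZNF440 forward: cacgcagaggacgccggaac
ZNF440 reverse: atcCAGCAAAGCCCACTCCTCC
ZNF555 forward: tgccccgcctgcccctag
ZNF555 reverse: CAGCAAAGCCCACTCCTCCag
ZNF559 forward: tgtggctgtggacttcaccca
ZNF559 reverse: caccacactggatgttttcccct
The capitalised 19 bases occurred, on the antisense strand, in transcripts of 11 members, ZNF555, ZNF57, ZNF627, ZNF440, ZNF439, ZNF69, ZNF763, ZNF20, ZNF625, ZNF709 and ZNF490. The whole ZNF440 reverse primer had its site in 9 members other than ZNF440, and the ZNF555 reverse primer in 3 others, ZNF490, ZNF57 and ZNF627. The ZNF559 forward primer also had its site in ZNF426. The other 3 primers had a site in no other member.

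Promoter windows of 250 bases before to 50 after the gene start (RefSeq, GRCh38.p14) were at hand for 37 members, all but ZNF559 and ZNF763, and were searched on both strands. The GC box GGGCGG was in 86.5% of the members' windows, against 45.0% of 35116 windows of all genes. The CCAAT box was in 81.1% against 34.6%, and TATAAA was in 0% against 11.5%. The cyclic AMP response element TGACGTCA was in 13.5% against 1.85%. It occurred in 5 members of group 2, ZNF266, ZNF426, ZNF121, ZNF561 and ZNF562. The letters AAGATGGCG, a form of the YY1 motif, were in 3 of those, ZNF121, ZNF561 and ZNF562. Below are the 150 bases before the start of 3 members that were lower in resistant HCT-116 cells, ZNF440, ZNF441 and ZNF44, and of 3 holders of the TGACGTCA letters, ZNF266, ZNF426 and ZNF121. Capitals mark CpG dinucleotides, the bases at which DNA methylation acts in human cells, and no methylation was measured here.
ZNF440, chr19:11814123-11814272, plus strand: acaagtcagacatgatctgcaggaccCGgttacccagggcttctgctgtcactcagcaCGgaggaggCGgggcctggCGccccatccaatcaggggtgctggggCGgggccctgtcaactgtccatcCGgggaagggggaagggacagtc
ZNF441, chr19:11766850-11766999, plus strand: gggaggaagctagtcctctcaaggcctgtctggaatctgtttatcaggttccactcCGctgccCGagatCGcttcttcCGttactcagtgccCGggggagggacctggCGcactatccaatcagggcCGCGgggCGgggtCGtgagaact
ZNF44, chr19:12294884-12295033, minus strand: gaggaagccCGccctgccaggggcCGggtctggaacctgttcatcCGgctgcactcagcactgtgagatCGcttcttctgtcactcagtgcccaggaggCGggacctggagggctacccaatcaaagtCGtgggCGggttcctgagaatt
ZNF266, chr19:9435574-9435723, minus strand: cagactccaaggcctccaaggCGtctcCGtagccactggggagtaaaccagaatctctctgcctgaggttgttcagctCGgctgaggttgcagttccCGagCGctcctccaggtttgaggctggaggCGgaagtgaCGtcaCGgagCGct
ZNF426, chr19:9538646-9538795, minus strand: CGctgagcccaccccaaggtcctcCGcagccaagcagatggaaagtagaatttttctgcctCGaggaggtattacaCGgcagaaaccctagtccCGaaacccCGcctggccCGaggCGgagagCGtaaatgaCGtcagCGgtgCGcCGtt
ZNF121, chr19:9584505-9584654, minus strand: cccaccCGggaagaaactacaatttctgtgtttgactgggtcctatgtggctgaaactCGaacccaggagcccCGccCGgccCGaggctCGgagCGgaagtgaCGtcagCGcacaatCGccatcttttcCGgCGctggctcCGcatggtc
The 6 were chosen as windows that lie outside the annotated bodies of the members, and they do not stand for all members of either set. The ZNF426 window overlaps the annotated noncoding RNA gene ZNF426-DT. Such letter matches describe the windows and do not show that a factor binds there.

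Library totals ran from 38957142 to 218518344 estimated counts with a median of 51373543, and the second highest was 86673615. Of 8 colon epithelial markers, 5 were at 1 TPM (a share of transcripts scaled to 1000000, corrected for length) or more in all 54 libraries, and VIL1, CDX2 and LGALS4 were not. Their summed level ran from 2352 to 14391 TPM. None of 4 fibroblast, 4 leukocyte and 2 endothelial markers was at 1 TPM in all libraries, and their sums ran from 0.545 to 31.2, from 0.145 to 6.35 and from 0.0641 to 5.20 TPM. The libraries labelled resistant HT-29 went against their label. Genes at 10 TPM or more in a single sensitive line and at 0.1 or less in both others served as line markers, and 62 of 64 HCT-116 markers (96.9%) were at 1 TPM or more in the libraries labelled resistant HT-29 under each treatment, while 0 of 12 HT-29 markers were. In resistant DLD-1 cells, 19 of 20 DLD-1 markers (95.0%) were present, and in resistant HCT-116 cells 62 of 64 HCT-116 markers were. All comparisons that use the libraries labelled resistant HT-29 are given below under that name. These libraries were compared with HCT-116 cells under uracil only. In every comparison of them with sensitive HT-29, line and resistance cannot be told apart. In bulk RNA, fewer cells expressing a gene and less RNA of it per cell cannot be told apart.

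**Figure D1:**
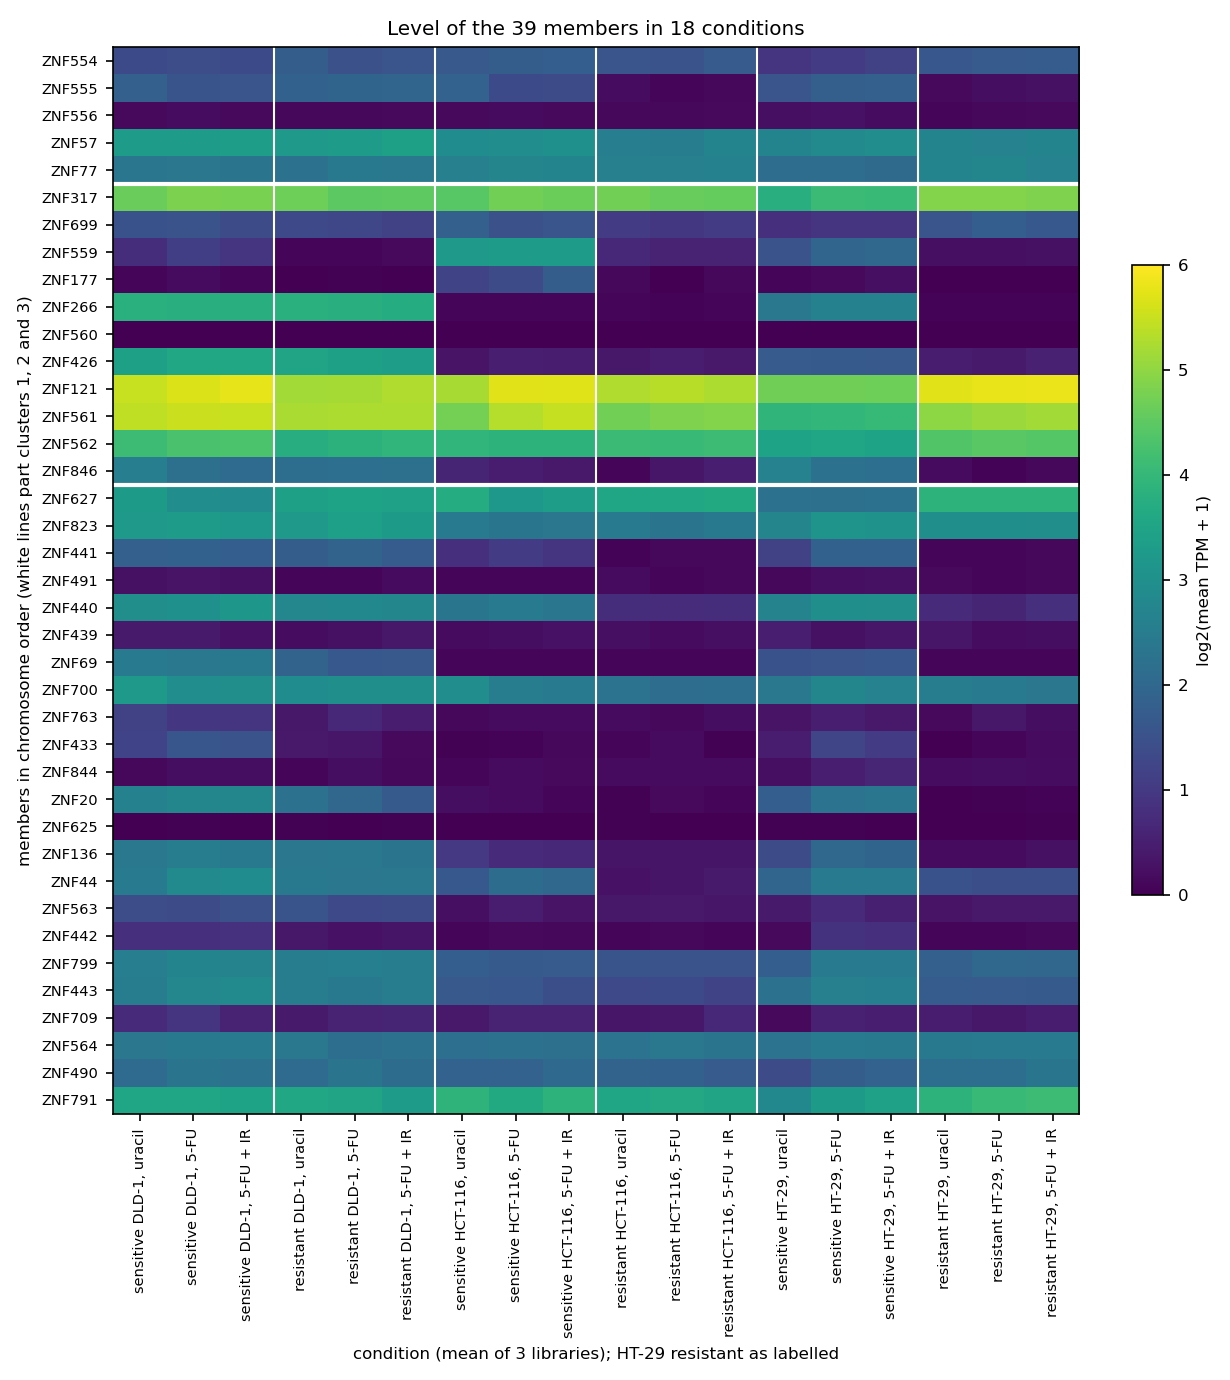
Heat map of log2(mean TPM + 1), mean of 3 replicates, for the 39 members in chromosome order (rows) in the 18 conditions (columns). ZNF121, ZNF561, ZNF317, ZNF562 and ZNF791 stay bright in every column, and blocks of neighbouring rows darken in some cell lines only, as for ZNF266 in HCT-116.

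The members covered a wide range of levels in TPM. ZNF121 was highest, with a mean of 41.6 TPM over the 18 conditions and condition means from 24.5 in sensitive HT-29 under 5-FU and irradiation to 55.8 in the libraries labelled resistant HT-29 under the same treatment. ZNF561 followed at 32.0 TPM (14.1 to 45.2), then ZNF317 at 23.1 TPM (12.7 to 28.5). The ranges of these 3 members of group 2 overlapped. ZNF562 had a mean of 15.3 TPM (10.1 to 21.0), ZNF791 of 11.3 TPM (5.98 to 16.4) and ZNF627 of 9.22 TPM (3.65 to 13.7). At the other end, ZNF491, ZNF625 and ZNF560 had means of 0.117, 0.0122 and 0.00220 TPM, and ZNF560 was at the floor of 3 counts in 17 of 18 conditions. In all, 14 members reached a mean of 1 TPM in all 18 conditions, 17 in some of them and 8 in none (ZNF709, ZNF442, ZNF439, ZNF844, ZNF556, ZNF491, ZNF625 and ZNF560).

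The sensitive lines differed among themselves before any drug. Under uracil the members summed to 137 ± 4.17 TPM in HT-29, 184 ± 1.54 in HCT-116 and 261 ± 5.52 in DLD-1 (SD, n = 3), with 25, 21 and 29 members at 1 TPM or more. In HCT-116 against DLD-1, 15 of the 37 members tested in all lines together were called lower, beside 14.2% of all 26043 genes tested, and 2 higher, beside 16.6%. A call here means an adjusted p of 0.01 or less in edgeR's quasi-likelihood test and at least a 2-fold change of the counts. In HT-29 against DLD-1, 13 were lower (17.4% of all genes) and 1 higher (13.4%). In HT-29 against HCT-116, 6 were lower (20.9%) and 8 higher (16.7%). The members' median log2 difference was -0.93 for HCT-116 against DLD-1 where that of all genes was -0.0608, it was -0.79 for HT-29 against DLD-1 where that of all genes was -0.0496, and it was 0.50 for HT-29 against HCT-116 where that of all genes was 0.00692.

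Some members were nearly absent from 1 line. ZNF266 was at 12.9 TPM in sensitive DLD-1 and 4.26 in sensitive HT-29 but at 0.0611 in sensitive HCT-116, a log2 difference of -7.36 against DLD-1. ZNF426, also of group 2, followed the same order, at 9.62, 2.29 and 0.246 TPM (log2 difference of HCT-116 from DLD-1 -5.02). The pattern was seen again in group 3, where ZNF69 stood at 4.63, 1.86 and 0.0526 TPM and ZNF20 at 5.19, 2.48 and 0.173 TPM (log2 differences -6.52 and -6.62). ZNF846 was at 4.90 TPM in DLD-1, 5.27 in HT-29 and 0.544 in HCT-116. ZNF559 and ZNF177 were instead highest in HCT-116. ZNF559 was at 8.37 TPM there, at 1.91 in HT-29 and at 0.736 in DLD-1 (log2 difference of HCT-116 from DLD-1 3.38), and ZNF177 was at 1.36, 0.0626 and 0.0790 TPM (3.99).

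Resistant cells were then compared with sensitive cells of the same line under uracil, which asks how the resistant culture differs without the 24 h dose of 5-FU. The methods text does not say whether the 5-FU of the maintenance medium was removed beforehand. In DLD-1, 4 of the 36 members tested were lower, beside 2.01% of all 21814 genes tested, and 0 were higher, beside 3.69%. In HCT-116, 8 of 34 were lower, beside 6.80% of 22975 genes, and 1 was higher, beside 4.17%. In the libraries labelled resistant HT-29, 14 of 36 were lower than in sensitive HT-29, beside 18% of 23756 genes, and 4 were higher, beside 21.4%. The members' median log2 fold change was -0.13, -0.11 and -0.69 in that order, where the medians of all genes were -0.00942, 0.00462 and 0.00101. With a floor on low counts, 3 to 5 members per line could not be tested, ZNF560 and ZNF625 in all lines, ZNF177 in DLD-1 and HT-29, and ZNF69, ZNF433 and ZNF20 in HCT-116. All 3 resistant libraries lay below all 3 sensitive ones for 14, 15 and 16 members, and above them for 1, 3 and 12. The share of all genes parted in this way was not computed, so these counts describe the members only. Among the 39 members, 17 were called lower in at least 1 line and 11 in DLD-1 or HCT-116. Matching shares of all genes were not computed, and the 17 include calls for the HT-29 label.

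**Figure D2:**
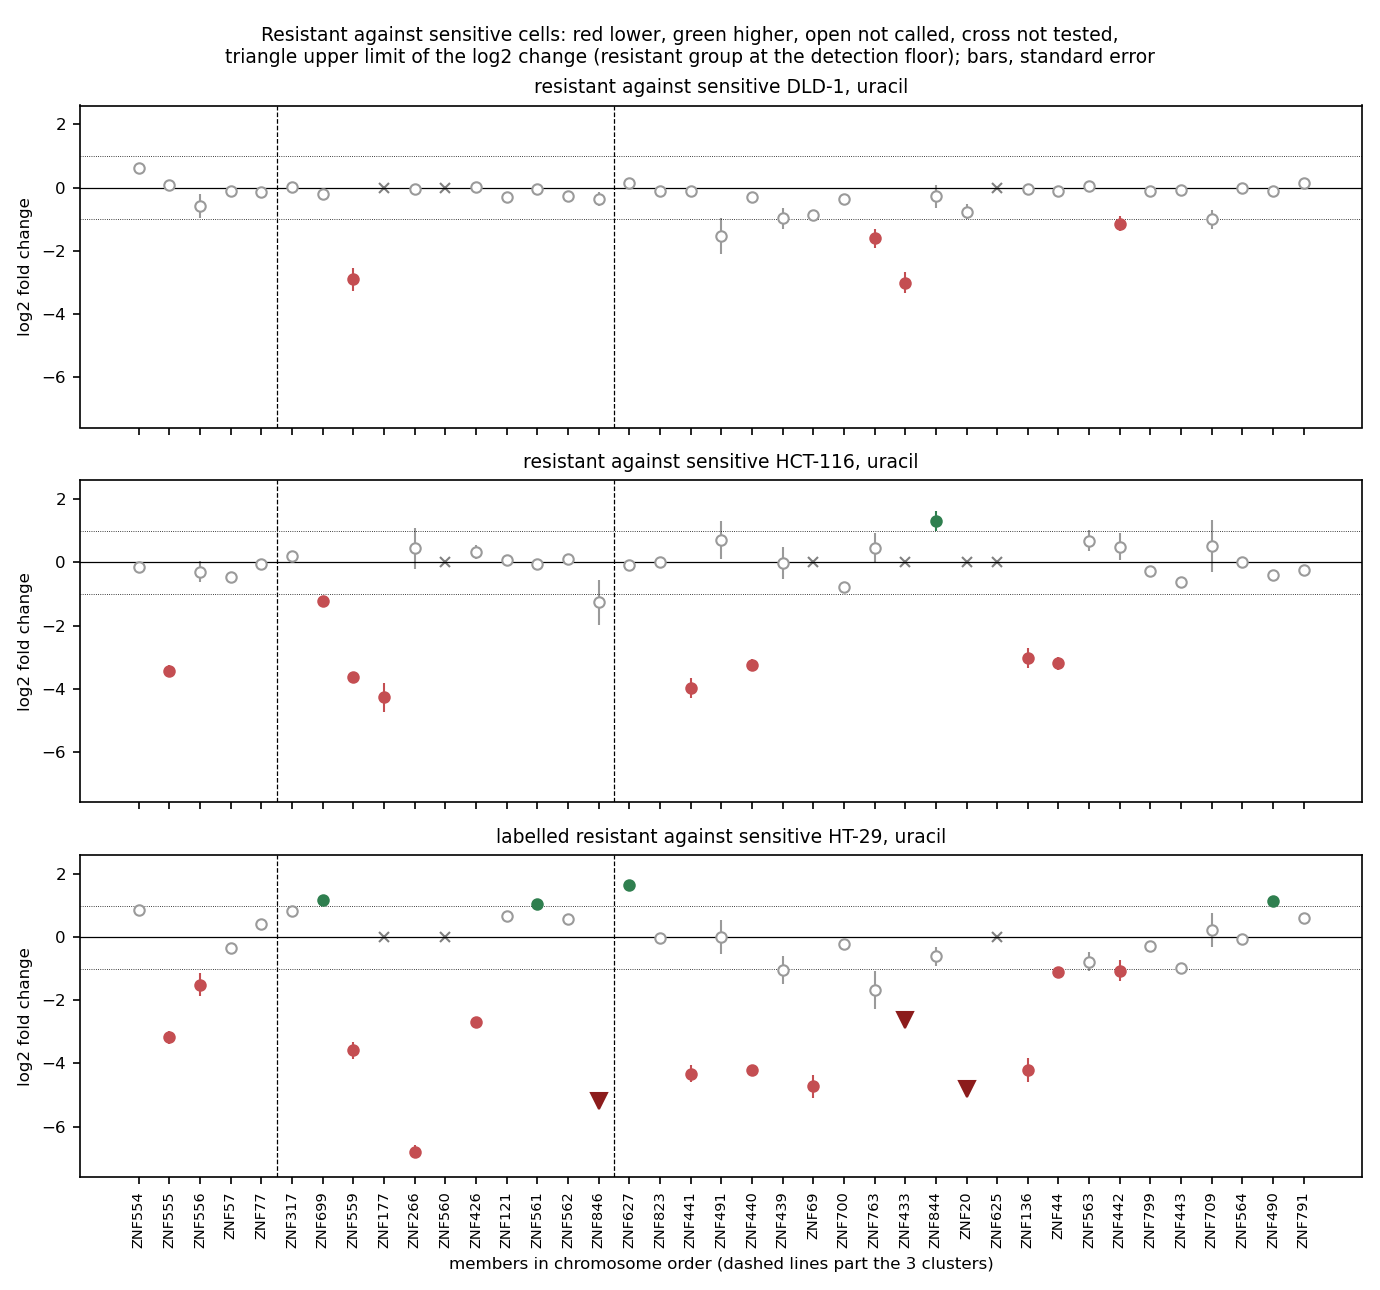
Log2 fold change of counts, resistant against sensitive cells under uracil, for each member in chromosome order, 1 panel per line as labelled (n = 3 replicates per condition, bars are SE). Red points are called lower, green points higher, open points are not called, crosses were not tested and triangles are upper limits for genes at the count floor. The 4, 8 and 14 members called lower are spread among members that are not called.

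Of the members tested, only ZNF559 was called lower under uracil in both DLD-1 and HCT-116, and it was also lower in the libraries labelled resistant HT-29. ZNF177 was not tested in DLD-1, and without the filter on low counts it was called lower there as well. ZNF559 lies in group 2 at chr19:9323772-9351162 on the plus strand. In DLD-1 the sensitive libraries held 0.958, 0.546 and 0.703 TPM and the resistant ones 0.0667, 0.0621 and 0.0925. In HCT-116 they held 9.44, 8.33 and 7.34 TPM, falling to 0.302, 0.771 and 0.766. In HT-29 they held 1.89, 2.09 and 1.74 TPM, against 0.160, 0.256 and 0.146 in the libraries labelled resistant. The groups did not overlap in any line. The log2 fold change of the counts was -2.91 in DLD-1 (SE 0.37, adjusted p = 2.08e-06), -3.62 in HCT-116 (SE 0.14, adjusted p = 5.80e-15) and -3.59 for the HT-29 label (SE 0.27, adjusted p = 3.17e-12). The level it fell from differed by line, with sensitive HCT-116 cells 3.38 log2 units above sensitive DLD-1 cells.

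In DLD-1 the other 3 members that fell all belong to group 3. ZNF433, at chr19:12014715-12035741 on the minus strand, had 1.38, 1.51 and 1.06 TPM in sensitive and 0.328, 0.598 and 0.0562 TPM in resistant cells. These rested on 52, 225 and 51 estimated counts against 6, 9 and 2. The groups were apart, and the log2 fold change of the counts was -3.01 (SE 0.33, adjusted p = 2.69e-07). ZNF763, at chr19:11965037-11980617 on the plus strand, went from 1.63, 1.00 and 1.09 TPM to 0.479, 0.322 and 0.129, again without overlap (log2 fold change -1.61, SE 0.31, adjusted p = 2.98e-04). ZNF442 had a log2 fold change of -1.14 (SE 0.23, adjusted p = 5.97e-04), and this call was lost without replicate 3. Smaller shifts passed the adjusted p without reaching 2-fold, among them ZNF69 at -0.86 (adjusted p = 5.19e-05), ZNF700 at -0.37, ZNF121 at -0.31, ZNF562 at -0.28 and, upward, ZNF554 at 0.61.

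In HCT-116 the members that fell came from all 3 groups, 1 of group 1, 3 of group 2 and 4 of group 3. ZNF555, of group 1 at chr19:2841437-2860471 on the plus strand, went from 3.24, 2.83 and 1.99 TPM in sensitive to 0.0744, 0.204 and 0.138 TPM in resistant libraries. The highest resistant value was far below the lowest sensitive value, with a log2 fold change of -3.43 (SE 0.18, adjusted p = 7.07e-13). In DLD-1 the same gene held 2.60, 2.19 and 3.01 TPM against 3.05, 2.70 and 2.21, which overlapped. ZNF177, just downstream of ZNF559 at chr19:9363013-9382617, went from 1.49, 1.36 and 1.23 TPM to 0.0650, 0.0395 and 0.160 (log2 fold change -4.28, SE 0.45, adjusted p = 4.25e-08). Its small unique share, given above, applies to this value. ZNF699, upstream of ZNF559 on the opposite strand, went from 2.15, 2.37 and 3.17 TPM to 0.897, 1.11 and 1.29 (log2 fold change -1.21, SE 0.10, adjusted p = 7.08e-10).

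Of group 3, ZNF440, at chr19:11814273-11835216 on the plus strand, held 3.68, 4.10 and 4.27 TPM in sensitive and 0.747, 0.753 and 0.707 TPM in resistant HCT-116 cells. Its counts fell by 3.24 on the log2 scale (SE 0.17, adjusted p = 5.69e-13), more than its TPM. Counts and TPM weigh short and long transcripts of a gene differently. In DLD-1 the same gene held 6.78, 6.90 and 6.75 TPM against 6.31, 5.39 and 5.86, lower in all resistant libraries but short of 2-fold (log2 fold change -0.31, adjusted p = 6.62e-04). ZNF441 went in HCT-116 from 0.658, 0.922 and 0.761 TPM to 0.0632, 0.0195 and 0.0589 (log2 fold change -3.98, SE 0.33, adjusted p = 1.26e-09). ZNF44 and ZNF136 fell without overlap as well. ZNF44 went from 2.46, 1.87 and 2.06 TPM to 0.195, 0.243 and 0.251 (log2 fold change -3.20, SE 0.21, adjusted p = 1.93e-11). ZNF136 went from 0.885, 1.34 and 0.719 TPM to 0.249, 0.408 and 0.138 (log2 fold change -3.03, SE 0.32, adjusted p = 4.19e-08). The only member called higher was ZNF844, at 8, 9 and 16 estimated counts in sensitive and 29, 36 and 22 in resistant libraries (log2 fold change 1.31, SE 0.33, adjusted p = 0.00226), and its call was lost without replicate 1 or without replicate 2. ZNF627, of the same group, was not called (log2 fold change -0.0759, adjusted p = 0.387), at 12, 12 and 12.4 TPM in sensitive and 9.98, 10.7 and 11.8 in resistant libraries.

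**Figure D3:**
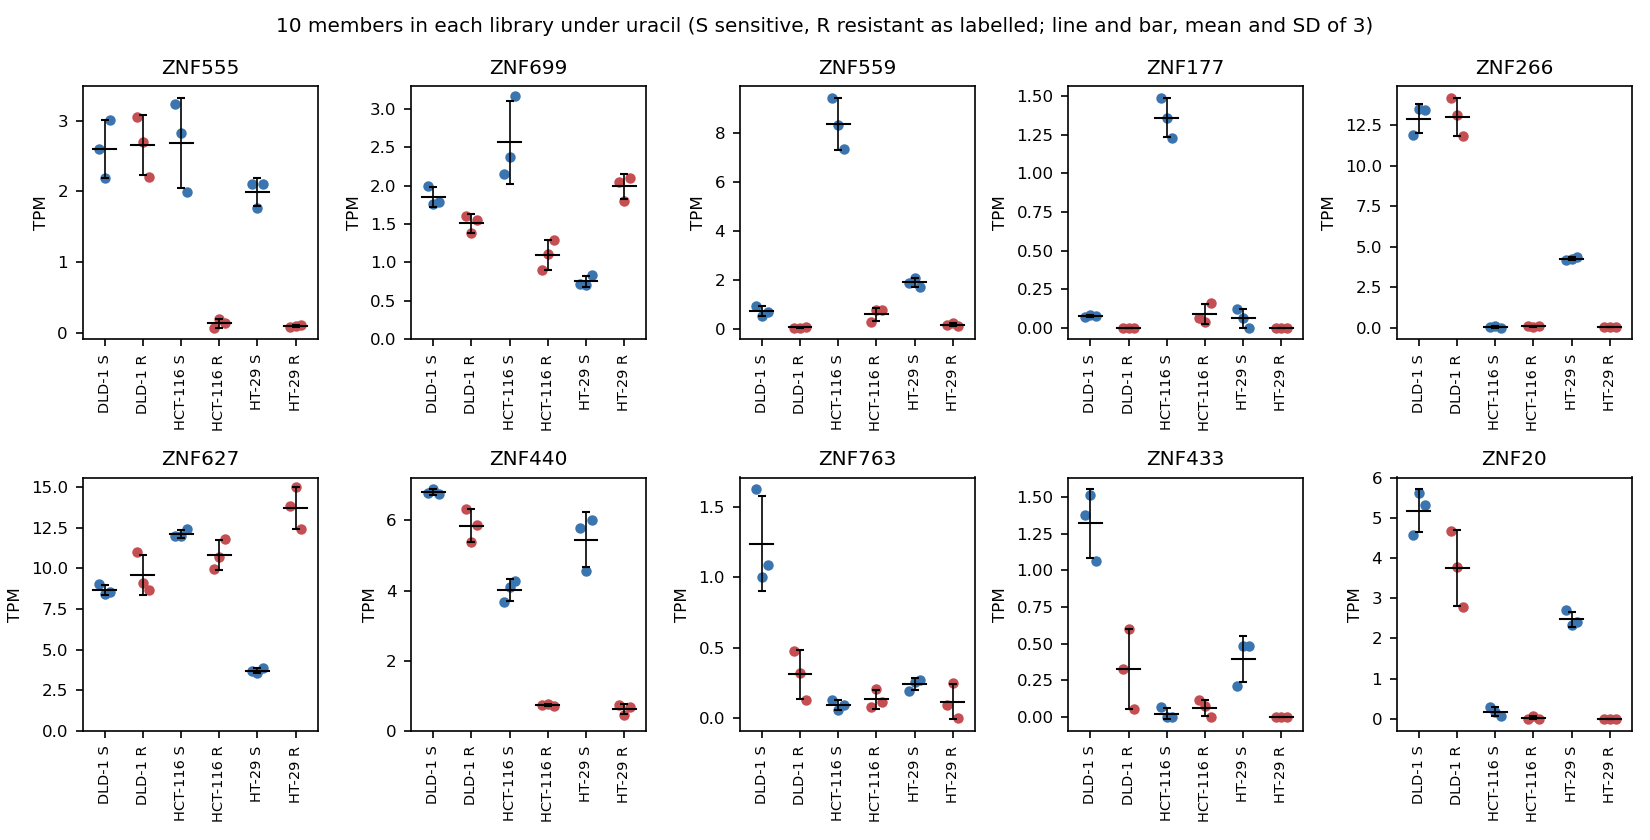
TPM of 10 members in every library under uracil, with the mean and SD of 3 replicates, sensitive and resistant cells side by side for each line as labelled. ZNF559 drops in all 3 pairs, ZNF433 and ZNF763 in DLD-1, and ZNF555, ZNF177 and ZNF440 in HCT-116.

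The effect of resistance was compared directly between DLD-1 and HCT-116. In a single fit of all libraries, the difference of the log2 fold changes (DLD-1 minus HCT-116) passed an adjusted p of 0.01 for 14 of 37 members, beside 32.3% of all genes, with 5 below and 9 above 0. The differences were 3.86 for ZNF441, 3.49 for ZNF555, 3.08 for ZNF44, 2.96 for ZNF136 and 2.92 for ZNF440, all with a lower value in HCT-116, and -2.07 for ZNF763 with the lower value in DLD-1. The differences of ZNF136, ZNF44, ZNF440, ZNF441, ZNF555, ZNF562, ZNF699 and ZNF791 passed under every alternative run. ZNF559 was not among the 14.

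The libraries labelled resistant HT-29 differed from sensitive HT-29 more widely. ZNF20, ZNF433 and ZNF846 were at or under the floor of 3 counts in each labelled library. ZNF20, at chr19:12092843-12140355, had 129, 88 and 79 estimated counts in sensitive HT-29 and 0, 0 and 0 in the labelled libraries, at least 27.8-fold lower. ZNF433 had 19, 25 and 19 counts against 0, 0 and 0, at least 6.13-fold lower, and ZNF846 was at least 36.2-fold lower. ZNF266, at chr19:9412429-9435573 on the minus strand, held 4.16, 4.23 and 4.38 TPM against 0.0205, 0.0593 and 0.0356 (log2 fold change -6.79, SE 0.20, adjusted p = 5.03e-21). ZNF440 went from 5.79, 4.57 and 6.0 TPM to 0.734, 0.463 and 0.691, and ZNF555 from 2.10, 1.76 and 2.11 to 0.0939, 0.103 and 0.120. None of these groups overlapped. ZNF69, ZNF441, ZNF440, ZNF136, ZNF555 and ZNF426 had log2 fold changes of -4.73, -4.33, -4.21, -4.21, -3.17 and -2.70. ZNF556, ZNF44 and ZNF442 had smaller ones of -1.50, -1.09 and -1.06, and ZNF442 lost its call in 7 alternatives. In the other direction, ZNF627, the first gene of group 3, held 3.68, 3.54 and 3.87 TPM in sensitive HT-29 and 13.8, 15.0 and 12.4 in the labelled libraries (log2 fold change 1.64, SE 0.10, adjusted p = 1.47e-13). ZNF699 held 0.716, 0.707 and 0.841 TPM in sensitive HT-29 and 2.05, 1.80 and 2.10 in the labelled libraries. Its order in HCT-116 was the reverse, but sensitive HCT-116 held a mean of 2.56 TPM, so line and resistance cannot be told apart. ZNF699, ZNF490 and ZNF561 were higher by 1.18, 1.13 and 1.05 on the log2 scale. Scaling to library size alone, which moved the median of all genes by 0.26 in this comparison, gave 12 lower and 6 higher members.

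Set against HCT-116 instead, the labelled libraries differed in few members. Compared with sensitive HCT-116 they were lower for 6 of 37 members, beside 4.60% of all genes, and higher for 1, beside 2.27%. The 6 were ZNF177 (at least 22.1-fold lower), ZNF559, ZNF440, ZNF136, ZNF441 and ZNF555 (log2 differences -5.49, -3.81, -3.54, -3.53 and -3.29), which are also 6 of the 8 members lower in resistant HCT-116. Compared with resistant HCT-116, ZNF559 was lower (log2 difference -1.89, SE 0.30, adjusted p = 1.67e-06), ZNF44 was higher at 1.83 against 0.230 TPM (log2 difference 2.73, SE 0.19, adjusted p = 5.32e-17), and the other 35 members were not called, beside 3.36% of all genes called in either direction. The median log2 difference of the members was -0.0525 against sensitive and 0.0669 against resistant HCT-116, where that of all genes was 0.00776 and -0.00964, and with floor genes at their bound the members' medians were -0.0424 and 0.11. Of the 14 members lower than in sensitive HT-29, 9 were not lower than in sensitive HCT-116, and 6 of the 14 (ZNF266, ZNF426, ZNF846, ZNF69, ZNF433 and ZNF20) were already lower in sensitive HCT-116 than in sensitive HT-29. Of the 4 members higher than in sensitive HT-29, none was called against sensitive HCT-116. ZNF699, ZNF627 and ZNF490 among them were already higher in sensitive HCT-116 than in sensitive HT-29. These comparisons share libraries and are not independent of each other.

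**Figure D4:**
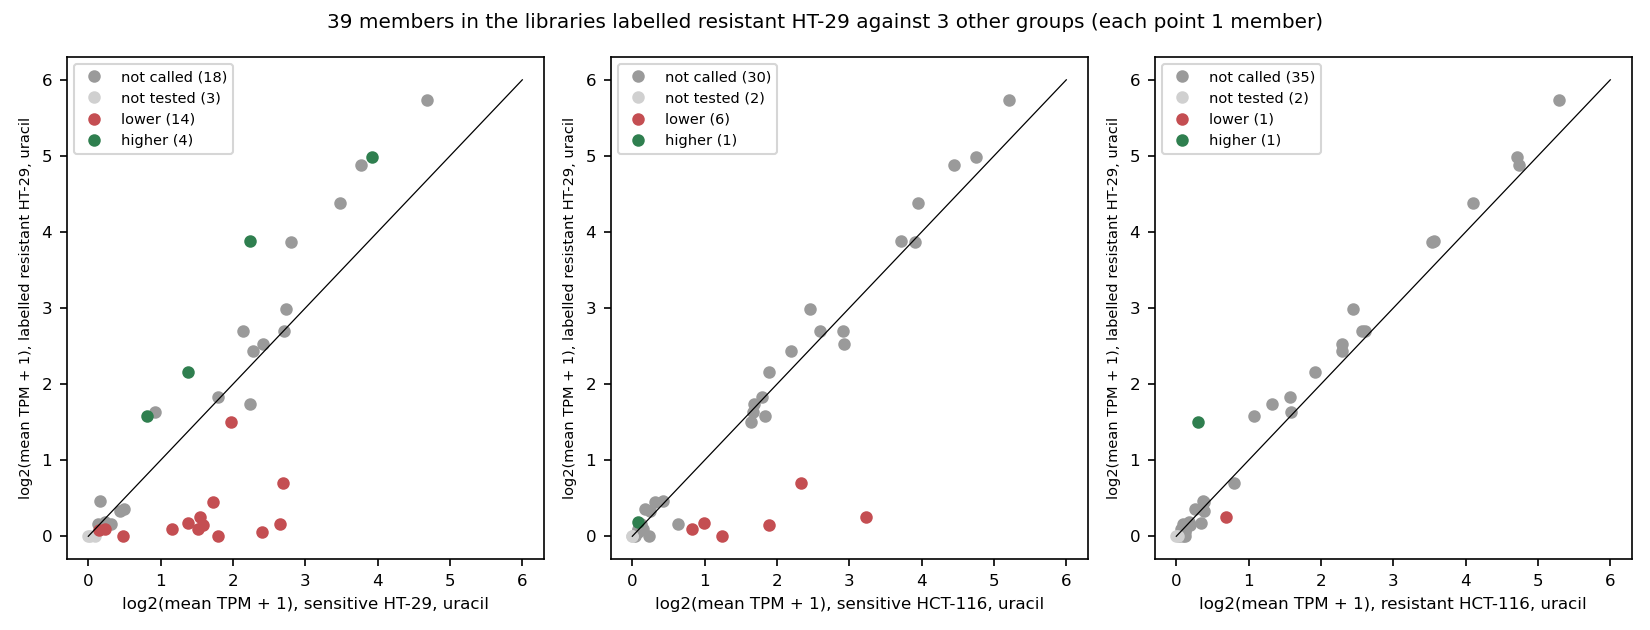
Log2(mean TPM + 1) of the 39 members in the libraries labelled resistant HT-29 (vertical) against sensitive HT-29, sensitive HCT-116 and resistant HCT-116 (horizontal), all under uracil, with the line of equality. Members called lower and higher number 14 and 4 in the first panel, 6 and 1 in the second, and 1 and 1 in the last.

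The same comparison was made under the other treatments, where the sensitive and resistant libraries are other samples. Under 5-FU, 5 members were lower in resistant DLD-1 (5.23% of all genes) and 7 in resistant HCT-116 (8.03%). For the HT-29 label 18 were lower (21.0%) and 4 higher (21.7%). With irradiation added the counts were 5 (5.07%), 8 (6.14%) and 15 (20.3%), with 4 higher in the last (22.1%), and the first of these was 3 without replicate 1. The median log2 fold change of the members was -0.14, -0.43 and -1.21 under 5-FU, where that of all genes was -0.00945, -0.0176 and 0.00513. It was -0.10, -0.43 and -0.98 with irradiation, where that of all genes was -0.0149, 0.00590 and 0.0112. ZNF559 and ZNF433 were lower in resistant DLD-1 under all 3 treatments, with ZNF559 at -2.97 under 5-FU and -3.13 with irradiation. Of the 8 members lower in resistant HCT-116 under uracil, 7 were lower under all 3 treatments (ZNF555, ZNF559, ZNF177, ZNF441, ZNF440, ZNF136 and ZNF44). For the HT-29 label, 13 members were lower and 3 (ZNF699, ZNF561 and ZNF627) higher under all 3 treatments. The share of all genes called under all 3 treatments was not computed for any line. Further calls appeared under 5-FU or with irradiation that were not made under uracil. In DLD-1, ZNF20 was lower under 5-FU (-1.14), a call lost without replicate 3 and with read-through counts added, and with irradiation (-1.03), a call lost without replicate 1 or without replicate 2. ZNF491 was lower there with irradiation (-2.03), and this call was lost in 4 alternatives, without replicate 1 and without replicate 3 among them. For the HT-29 label, ZNF709, ZNF844 and ZNF443 were lower under 5-FU (-4.15, -1.48 and -1.24). In all, 14 members were called in no comparison of resistant with sensitive cells, ZNF317, ZNF562, ZNF791 and ZNF57 among them. How many of all genes were called in none was not computed.

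The response to 5-FU was next compared with uracil within each form. In sensitive cells, 4 of 36 members were called in HT-29 (12.2% of all genes), 2 of 34 in HCT-116 (8.14%) and 0 of 36 in DLD-1 (4.02%), and all 6 calls were higher. In sensitive DLD-1, 9 members were at an unadjusted p under 0.05, and ZNF627 and ZNF700 shifted by -0.46 and -0.40 on the log2 scale (adjusted p = 1.15e-05 and 7.97e-05). Counts at an unadjusted p, here and below, have no share of all genes beside them and describe the members only. The 6 calls were of genes at low levels, and DESeq2 also called 0 in DLD-1. In HT-29, ZNF442 rose from 0.113, 0.0835 and 0.121 to 0.902, 0.671 and 0.906 TPM, a log2 fold change of 1.93 (SE 0.25, adjusted p = 2.16e-07). ZNF709 rose from 0.129, 0.0766 and 0.138 to 0.410, 0.473 and 0.491 TPM, on 14, 12 and 12 against 79, 80 and 78 estimated counts (log2 fold change 2.02, SE 0.46, adjusted p = 4.97e-04), with the small unique share given above. Both calls held under every alternative run, and the others did not.

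ZNF433 rose in sensitive HT-29 from 0.212, 0.486 and 0.482 to 1.54, 1.32 and 1.25 TPM (log2 fold change 1.23, SE 0.26, adjusted p = 3.38e-04), a call lost without replicate 1. ZNF844 rose there from 0.203, 0.178 and 0.153 to 0.288, 0.531 and 0.459 TPM (log2 fold change 1.03, SE 0.25, adjusted p = 9.72e-04), lost without replicate 2 or 3. The same gene rose in sensitive HCT-116, from 8, 9 and 16 to 35, 44 and 20 estimated counts (log2 fold change 1.23, SE 0.33, adjusted p = 0.00338), lost without replicate 1 or 2. ZNF563 rose in sensitive HCT-116 from 0.147, 0.218 and 0.178 to 0.532, 0.245 and 0.340 TPM (log2 fold change 1.02, SE 0.32, adjusted p = 0.00966), and this call was lost in 6 alternatives, the replicate block among them. Among abundant members, ZNF121 and ZNF561 shifted upward in sensitive HCT-116 by less than 2-fold. ZNF561 went from 25.4, 26.2 and 26.3 to 41.3, 37.9 and 39.8 TPM (log2 fold change 0.54, adjusted p = 1.77e-09) and ZNF121 from 33.6, 39.1 and 35.3 to 52.6, 51.4 and 51.7 (0.51, adjusted p = 1.21e-08). ZNF627 moved down in the same cells, from 12, 12 and 12.4 to 7.93, 8.67 and 7.80 TPM (log2 fold change -0.57, adjusted p = 5.65e-07).

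**Figure D5:**
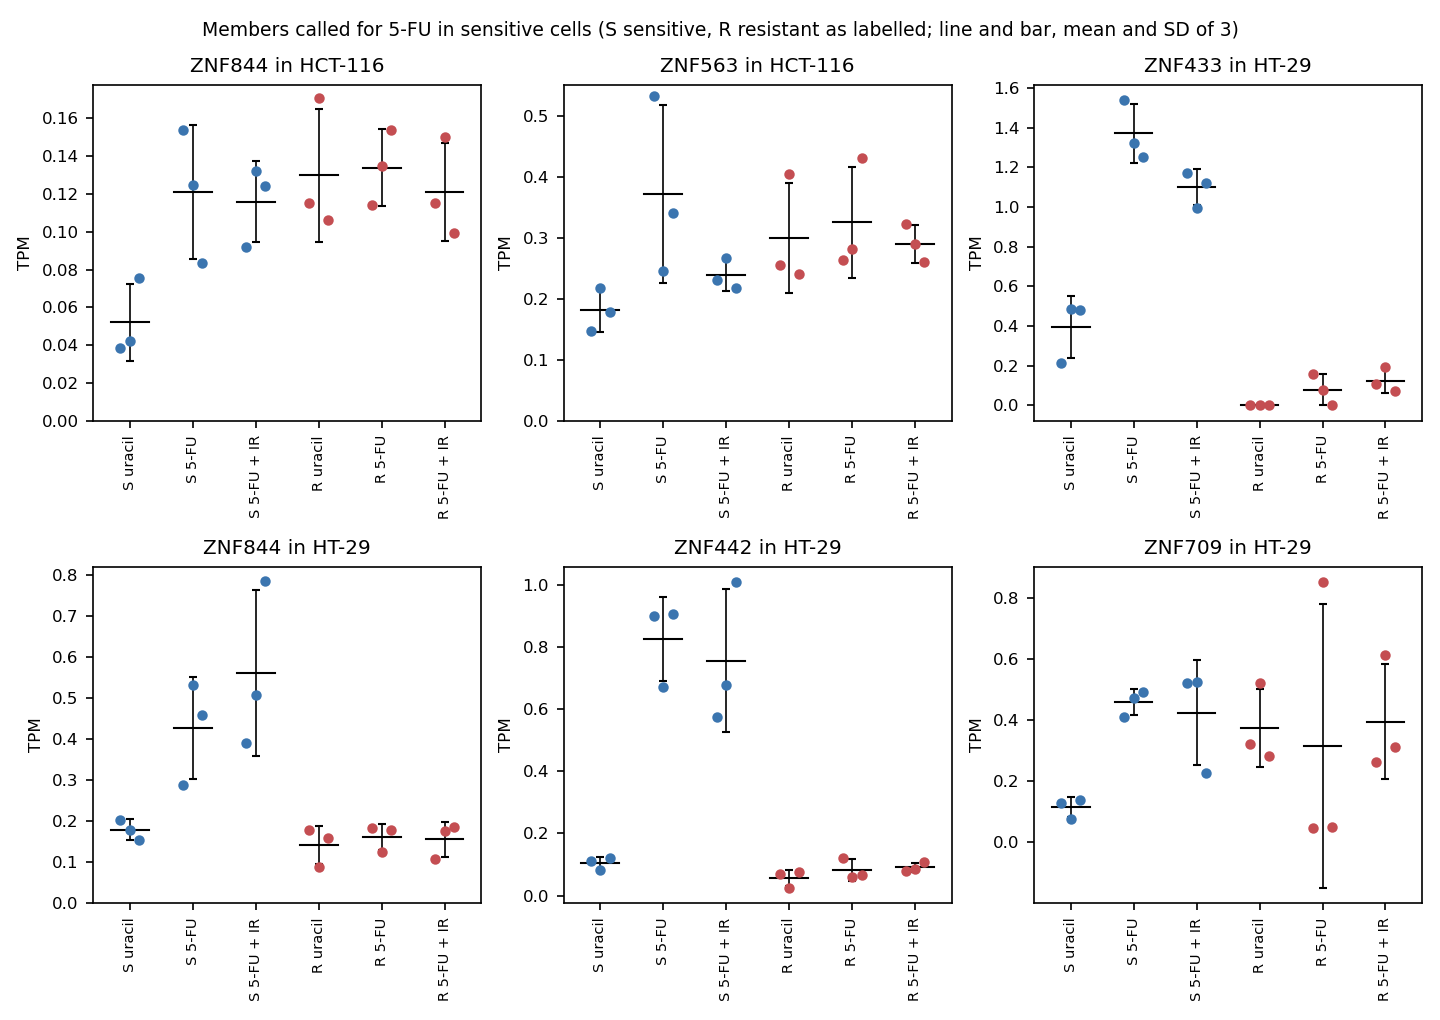
TPM of the members called for 5-FU in sensitive cells (ZNF844 and ZNF563 in HCT-116, ZNF433, ZNF844, ZNF442 and ZNF709 in HT-29) in every library of that line over its 6 conditions, with bars for the mean of 3 replicates. In sensitive HT-29, ZNF442 lies between 0.671 and 0.906 TPM under 5-FU, above all uracil libraries of that form.

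In resistant cells, 0 members were called for 5-FU in any line, beside 0.0138% of all genes for DLD-1, 0% for HCT-116 and 0.00421% for the HT-29 label. DESeq2 also called 0 in each, and 7, 2 and 3 members were at an unadjusted p under 0.05 in edgeR. The response differed between the forms by a direct interaction test for 2 members in DLD-1 (22.8% of all genes), 4 in HCT-116 (29.7%) and 5 for the HT-29 label (35.4%). In HCT-116 these were ZNF561 (-0.53, SE 0.0661, adjusted p = 1.16e-06), ZNF121 (-0.49), ZNF317 (-0.29) and ZNF627 (0.50), each opposite in sign to its response in sensitive cells. These counts leaned on single replicates, with 0 in DLD-1 without replicate 3, 2 in HCT-116 without replicate 1 and 3 in HT-29 without any single replicate. Adding irradiation to 5-FU gave 0 called members in sensitive cells, beside 0%, 0% and 0.00842% of all genes, with 1, 6 and 0 members at an unadjusted p under 0.05 in edgeR. It gave 0 in resistant cells as well, beside 0.142%, 0.0261% and 0.434%, with 3, 5 and 6 members at that p. DESeq2 called 0 in all 6, and for resistant HT-29 as labelled 1 member was called without replicate 1 or without replicate 2.

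The partners of the KRAB domain were measured alongside, as a list of 17 co-repressor and silencing genes. Condition means of TRIM28 itself ran from 436 to 1179 TPM. Under uracil, 0 of the 17 were called between resistant and sensitive DLD-1 or HCT-116 cells, and CBX3, an HP1 protein, was lower for the HT-29 label (log2 fold change -1.01). The list's median log2 fold change was -0.0502 for DLD-1, 0.0365 for HCT-116 and -0.0108 for the HT-29 label. Under 5-FU, resistant HCT-116 cells stood above sensitive ones for the HP1 protein CBX5 (1.10), the maintenance DNA methyltransferase DNMT1 (1.07) and TRIM28 (1.01), 3 of 17 beside 5.28% of all genes called higher. With irradiation the same 3 and UHRF1 (1.08), which guides DNMT1 to replicated DNA, were higher, beside 5.72% of all genes. In sensitive cells the median log2 response of the list to 5-FU was -0.28 in HCT-116, -0.11 in DLD-1 and -0.13 in HT-29. By the interaction test the response was higher in resistant than in sensitive HCT-116 cells for 11 of the 17 and lower for 0. This stood beside 29.7% of all genes in either direction. In DLD-1 the response was higher for 9 and lower for 2 (22.8% of all genes). For the HT-29 label it was higher for 7 and lower for 3 (35.4%). For TRIM28 in HCT-116 this difference of responses was 0.33 (SE 0.0659, adjusted p = 3.29e-04), smaller than its 1.01 under 5-FU. TRIM28 thus also stood higher in resistant HCT-116 under uracil, by less than 2-fold. Its resistance effect under uracil was lower in DLD-1 than in HCT-116 (difference -0.69, SE 0.0719, adjusted p = 2.06e-11, interaction test). MPHOSPH8, which reads methylated histone H3, was lower for the HT-29 label under 5-FU (-1.14) and with irradiation (-1.22). Under uracil, 0 of the 17 were called between the labelled libraries and sensitive HCT-116, beside 4.60% of all genes lower and 2.27% higher. Against resistant HCT-116 it was also 0, beside 3.36% in either direction.

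Other genes inside the groups were also read. Of 7 such neighbours in the tables, 4 were tested in DLD-1, 3 in HCT-116 and 5 for the HT-29 label. The read-through gene ZNF559-ZNF177 was lower in resistant HCT-116 (log2 fold change -3.64) and for the HT-29 label (-2.38), ZNF878 in resistant DLD-1 (-4.64, adjusted p = 1.59e-08), and ACP5, an acid phosphatase gene, for the HT-29 label (-2.11). The read-through gene ZNF625-ZNF20 was also called lower for the HT-29 label (adjusted p = 8.80e-04). Against sensitive HCT-116, the labelled libraries were lower for 1 of 6 neighbours tested, ZNF559-ZNF177 (-4.90), beside 4.60% of all genes. ACP5 was not called there, and it was higher in sensitive HT-29 than in sensitive HCT-116 (log2 difference 1.96). Over the 18 condition means, 31 members with enough signal could be correlated, as a description only, since conditions of a line share its background. The median Pearson r was 0.651 for 20 adjacent pairs, 0.589 for 187 pairs within a group and 0.0530 for 278 pairs in different groups. The closest patterns were those of ZNF69 and ZNF20 (r = 0.986) and of ZNF266 and ZNF426 (r = 0.976).

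Summed over each group, the levels under uracil moved by less than the 2-fold change required of a called member. Such sums weigh abundant members most and do not describe the typical member. Group 1 held 17.3 TPM in sensitive and 17.4 in resistant DLD-1 under uracil, 16.5 and 12.2 for HCT-116, and 12 and 13.3 for the HT-29 label. Group 2 held 156 and 137, 110.4 and 107, and 76.3 and 134 TPM in the same order. In its abundant genes, ZNF121 stood at 24.8 TPM in sensitive HT-29 and 52.3 in the labelled libraries, and ZNF561 at 14.1 and 30.7. Group 3 held 87.6 and 79.7, 57.2 and 42.5, and 48.7 and 55.9 TPM. Over all members, resistant cells summed to 234 ± 4.63, 162 ± 4.03 and 203 ± 4.82 TPM (SD, n = 3), and 27, 16 and 17 members reached 1 TPM. The median member stood at 3.50, 0.300 and 0.364 TPM, against 4.16, 2.13 and 1.99 in the sensitive forms.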

How the data were processed

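The authors trimmed paired-end reads of directional poly(A) libraries with Trimmomatic 0.36, checked them with FastQC 0.11.8 and quantified them with kallisto 0.44.0 on Ensembl 98 (GRCh38, patch p13). They deposited gene-level estimated counts and TPM, summed over transcripts, for 54 samples. Of the gene values 60.9%, and of the members' values 11.2%, were whole within 1e-06, so reads shared between genes had been split. Estimated counts were rounded and tested with edgeR 4.0.16 (quasi-likelihood, TMM, filterByExpr, Benjamini-Hochberg over all genes; R 4.3.3, limma 3.58.1), 18 libraries and 6 groups per line, and 54 libraries and 18 groups across lines. A call is an adjusted p of at most 0.01 and at least 2-fold, and differences of responses used the adjusted p alone. SE follow from the fold change and F. A gene at 3 counts or fewer in each library of a group is at the floor, and its fold is a bound. The floor covers counting error only.

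The alternatives were DESeq2 1.42.0, library size alone, no filter, compared groups only, a replicate block, each replicate left out and read-through counts added. The fit was tested on counts drawn with a log2 change of 2 in 200 genes per line. It recovered all 200 in each line, with 0 false calls in DLD-1 and HCT-116 and 4 in HT-29. The changed genes were drawn above a minimum level, so the test does not cover members at few counts or smaller changes. All genes were drawn with the same small spread, so it does not cover members whose replicates vary widely either. Words of 31 bases and KRAB domains (jackhmmer 3.4, E 1e-05) were read from GENCODE 44 transcripts. The members and lists were chosen with earlier results of these data known. Named by rule were all members called between resistant and sensitive cells under uracil or for a treatment, with values per library for those called in both DLD-1 and HCT-116, for the largest changes with a mean of at least 1 TPM and for the primer targets ZNF440, ZNF555 and ZNF559, and the 3 highest and 3 lowest members by level. Other genes were named after their values were seen. The methods call the replicates biological triplicates. Same-numbered samples showed no pairing: r of their deviations ran from -0.0997 to 0.12 in 26 comparisons, and 0 had every pair over 0.1. No 2 replicates were alike within counting noise (lowest chi-square per degree of freedom 2.31 in 54 pairs).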

Additional observations from a re-analysis of the deposited data

Results flagged for a closer look

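Each value here is a difference between 2 log2 fold changes that passed an adjusted p of 0.01 in edgeR's interaction test (n = 3 libraries in each condition). Causes were not tested.

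The 5-FU response (5-FU against uracil) differed between resistant and sensitive cells, given as resistant minus sensitive. In DLD-1 it differed for ZNF627 by 0.53 (SE 0.10, adjusted p = 2.60e-04) and for ZNF700 by 0.52 (SE 0.10, adjusted p = 4.44e-04), and without replicate 3 neither passed. In HCT-116 it differed for ZNF561 by -0.53, for ZNF121 by -0.49 (SE 0.0701, adjusted p = 6.71e-06), for ZNF317 by -0.29 (SE 0.0611, adjusted p = 4.87e-04) and for ZNF627 by 0.50 (SE 0.10, adjusted p = 3.36e-04). ZNF627 thus differed in the same direction in both lines, but passed under every alternative in neither. In HT-29 as labelled it differed for ZNF121 by 0.34 (SE 0.0573, adjusted p = 2.07e-05), for ZNF561 by 0.32 (SE 0.0793, adjusted p = 0.00146), for ZNF490 by -0.59 (SE 0.15, adjusted p = 0.00179), for ZNF799 by -0.50 (SE 0.13, adjusted p = 0.00370) and for ZNF709 by -4.38 (SE 0.84, adjusted p = 1.11e-04). The ZNF709 value rested on few reads, with 6, 7 and 34 estimated counts under uracil and 1, 7 and 1 under 5-FU in the libraries labelled resistant. Those libraries carry HCT-116 markers, so line and resistance cannot be told apart in the 5 HT-29 values. Among all these differences of the 5-FU response, few passed under every alternative. They were those of ZNF561 and ZNF121 in HCT-116 and of ZNF121 in HT-29 as labelled.

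The effect of resistance under uracil differed between DLD-1 and HCT-116, given as DLD-1 minus HCT-116. It was above 0 for ZNF441 by 3.86 (SE 0.32, adjusted p = 1.50e-14), ZNF555 by 3.49 (SE 0.23, adjusted p = 4.20e-18), ZNF44 by 3.08 (SE 0.22, adjusted p = 4.30e-17), ZNF136 by 2.96 (SE 0.35, adjusted p = 6.02e-10), ZNF440 by 2.92 (SE 0.19, adjusted p = 3.31e-18) and ZNF699 by 1.00 (SE 0.14, adjusted p = 6.17e-08). Smaller positive differences were 0.73 for ZNF554, 0.41 for ZNF700 and 0.40 for ZNF791. Below 0 were ZNF763 at -2.07 (SE 0.62, adjusted p = 0.00569), ZNF442 at -1.66 (SE 0.45, adjusted p = 0.00229), ZNF844 at -1.62 (SE 0.50, adjusted p = 0.00686), ZNF562 at -0.42 and ZNF121 at -0.39. ZNF763, ZNF442 and ZNF844 were low in HCT-116. Their differences, and those of ZNF554, ZNF700 and ZNF121, did not pass under every alternative.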

How the results depend on the processing

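Of 298 counts of members recomputed under the alternatives, 278 stayed within 1.5 times the reported count and 20 did not. Without a filter on low counts, 1 member in place of 0 was called for 5-FU, and 1 in place of 0 for added irradiation, in the libraries labelled resistant HT-29. For 5-FU in sensitive HCT-116 the count was 1 in place of 2 with no filter, with the compared groups only and in DESeq2. The replicate block also gave 1 in place of 2 there and moved no other count by over 1.5 times. Under it ZNF563 in that comparison, ZNF491 in resistant DLD-1 with irradiation, ZNF44 between sensitive HCT-116 and DLD-1 and ZNF844 in the difference of the resistance effects lost their calls, and ZNF763, ZNF442, ZNF844 and ZNF846 each gained a call in another comparison. Same-numbered samples did not deviate together.

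Leaving out each replicate in turn gave 0 to 1 for that comparison, 0 to 1 for members higher in resistant HCT-116 under uracil, and 3 to 6 for resistant DLD-1 under 5-FU with irradiation. It gave 0 to 3 (DLD-1), 2 to 5 (HCT-116) and 3 for differing 5-FU responses in HT-29 as labelled, where 2, 4 and 5 were reported, and 0 to 1 for irradiation in the libraries labelled resistant HT-29. Of 232 recomputed fold changes of 10 members between resistant and sensitive cells under uracil, 231 kept their side of the threshold, and ZNF763 for the HT-29 label gained a call with no filter (-1.67). In 6 of the 232, none of them called, the sign changed when 1 replicate was left out (ZNF555 and ZNF266 in DLD-1, and ZNF266, ZNF627 and ZNF763 in HCT-116). Causes were not tested. Depth limits members at few counts, and sequence shared between members limits those with few unique words.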
